A study of Mus musculus with 6 samples.

Results

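Integrins are the transmembrane receptors, each made of an alpha and a beta chain, by which cells hold on to and read the extracellular matrix. Laminins are trimers of an alpha, a beta and a gamma chain that form the mesh of basement membranes, at the pial surface of the spinal cord and around its vessels. The set described here holds all genes analysed here that are named as numbered integrin alpha or beta chains, Itgav, or numbered laminin chains. It came to 30 genes of the 19938 with a single symbol, namely 12 integrin alpha chains, 8 integrin beta chains and 10 laminin chains. Each of the 30 was read by 1 transcript cluster. Gene names alone set the membership, but the set was chosen with earlier results of these data known. Among the integrins, 8 chains known from other work to form receptors for tenascin-C were kept apart from the other 12: Itga2, Itga7, Itga8, Itga9, Itgav, Itgb1, Itgb3 and Itgb6.

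Total RNA came from the lumbar spinal cord of mouse embryos of strain SV129 at stage E15.5, and 3 wild-type samples were set against 3 labelled TNC -/-, the knockout of the gene for tenascin-C. Tenascin-C is a glycoprotein of the matrix around radial glia and young astrocytes, and it signals to cells in part through integrins. The labels call the samples biological replicates, but neither litters nor the deleted part of Tnc are given in the sources used here. The p values rest on the spread between these samples, which limma pulls toward the spread over all genes. Each sample was hybridised to 1 whole-transcript array, and the levels below are the authors' log2 values, on which a difference of 1 means a ratio of 2 in signal. Having 3 arrays per group limits precision, and levels of different genes are not set against each other.

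Tnc itself read 10.72, 10.22 and 10.02 in the wild-type arrays and 9.64, 9.76 and 9.47 in the knockout arrays. The groups did not overlap, and knockout arrays held 61.8% of the signal of wild type, a check on the labels that cannot measure intact transcript while the deleted part is unknown. The lumbar Hox genes, 6 of 6 measured, averaged between 10.67 and 10.84 per array, and 9 radial glial genes averaged between 10.68 and 10.89. Skeletal muscle genes averaged between 6.61 and 6.87, and 1190 olfactory and vomeronasal receptor genes, which the cord is not known to use, gave a 95th percentile of 6.14 as a guide to background signal. Uty, Eif2s3y and Kdm5d, on the Y chromosome, averaged 8.20 in knockout replicate 1 and 7.86 in knockout replicate 3, against 4.32 to 4.48 in the other 4 arrays, so the groups differed in the sex of the embryos as well as in Tnc. Over all genes, 49% of the variance lay on 1 component, with wild-type replicates 1 and 3 at its ends.

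No integrin or laminin chain was called as changed between knockout and wild type by a test across all genes. That test called no gene at all, and Tnc itself did not pass it. Limma with Benjamini-Hochberg adjustment put 0 of the 30 past an adjusted p of 0.05, where the share called over all 19938 genes was 0%. An unadjusted p under 0.05 was reached by 0 of the 30, against 1.70% of all genes (339). The smallest unadjusted p among the 30 was 0.0990, for Itga3. The knockout values lay wholly above or wholly below the wild-type values for 1 of the 30 genes, which is 3.33%, against a share of 5.82% over all genes. In knockout 18 of the 30 were higher and 12 lower, with 22 and 8 after median centring and 21 and 9 after renewed quantile normalization or cyclic loess. Leaving out 1 array moved the split to between 13 higher and 17 lower (without wild-type replicate 2) and 23 and 7 (without wild-type replicate 3 or knockout replicate 1). It was 24 and 6 with a term for sex, which compares only knockout replicate 2 with wild type, and also with a weight per array. Their median log2 difference was 0.02 where that of all genes was -0.0069, and 0.05 where that of all genes was 0.02 after median centring.

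The precision of the arrays sets bounds on what may have been missed. The 95% confidence intervals of all 30 log2 differences included 0, and all lay between -0.42 and 0.48. On the linear scale these outer bounds are a knockout signal of 0.748 times the wild-type signal, the lower bound for Lamb3, and of 1.39 times, the upper bound for Itga11. Both genes read near the background guide of 6.14 in some arrays, down to 6.19 for Lamb3 and 6.15 for Itga11. Each interval covers its own gene alone, and array signal need not scale with RNA amount, so the bounds apply to signal. They come from the fit without a term for sex, so they bound the contrast of groups that also differ in sex. With that term, which compares only knockout replicate 2 with wild type, the Itga1 difference was 0.39. The difference was smaller than the within-group standard deviation for 25 of the 30 genes, the exceptions being Itga1, Itga3, Itga5, Itga9 and Lama3. For 24 of the 30 the size of the log2 difference was under 0.1, as it was for 76.8% of all genes.

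**Figure D1:**
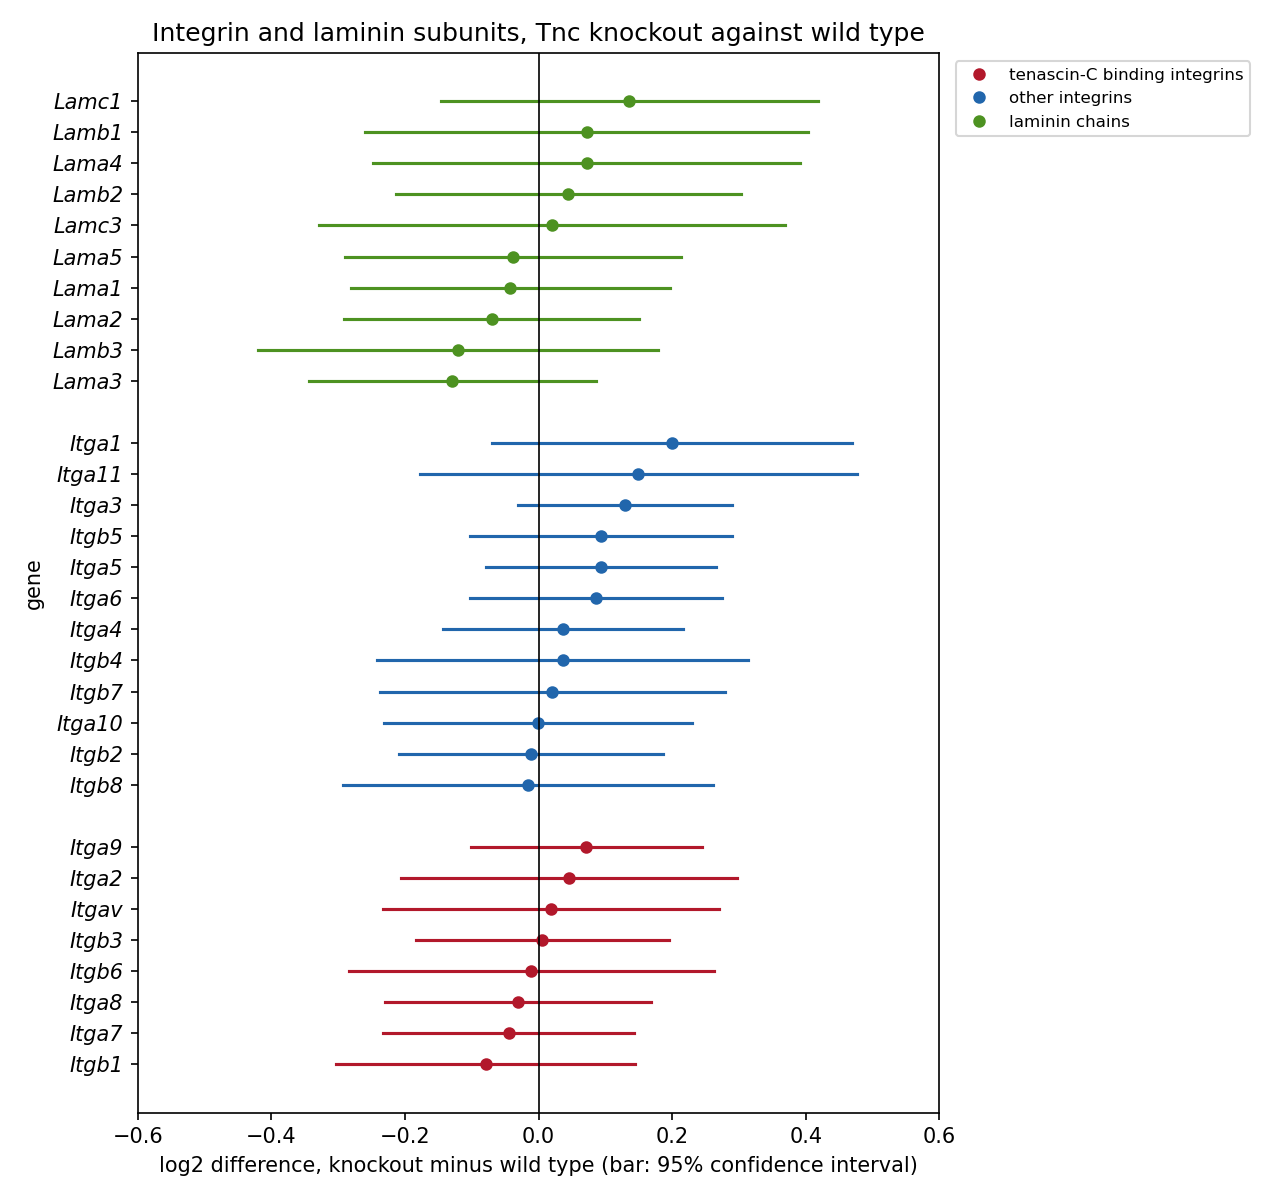
The log2 difference, knockout minus wild type, of each of the 30 chains, as a point with its 95% confidence interval as a bar, over 3 arrays per group. Tenascin-C binding integrins are red, other integrins blue and laminin chains green. Every bar, from the fit without a term for sex, crosses 0, and the bars end between -0.42 and 0.48.

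Tenascin-C binding integrins were evenly split, 4 being higher and 4 lower in knockout, or 5 and 3 after each of the 3 other normalizations. Leaving out 1 array gave between 3 higher and 5 lower (without wild-type replicate 1 or 2 or knockout replicate 2 or 3) and 5 higher and 3 lower (without wild-type replicate 3 or knockout replicate 1). With a term for sex, which compares only knockout replicate 2 with wild type, 7 were higher and 1 lower. A fit with a weight per array gave 6 higher and 2 lower. Their median log2 difference was -0.0024, turning to between 0.01 and 0.03 with those normalizations. The median of all genes moved as well, from -0.0069 to between 0.0002 and 0.0236. The differences of the 8 chains ran from -0.08 to 0.07. None of the 8 had groups that did not overlap. Itga9 read 8.05, 8.11 and 7.98 in wild-type replicates 1, 2 and 3 and 8.19, 8.07 and 8.09 in knockout replicates 1, 2 and 3. Itga9 pairs with Itgb1 in a receptor that binds tenascin-C at a site without the RGD tripeptide. Its highest reading was knockout replicate 1 and its lowest wild-type replicate 3, but wild-type replicate 2 lay above 2 knockout arrays. The wild-type mean was 8.04 ± 0.07 and the knockout mean 8.12 ± 0.07 (SD, n = 3 each), a difference of 0.07 with an interval from -0.10 to 0.24 (limma, unadjusted p = 0.368). Itga9 was the only chain of the 8 whose difference kept its sign when each array in turn was left out, running from 0.03 to 0.10.

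Itgb1 is the common beta chain, the partner of Itga2, Itga7, Itga8 and Itga9 and also of Itgav. Itgb1 read 9.52, 9.64 and 9.55 in wild-type replicates 1, 2 and 3 and 9.55, 9.62 and 9.31 in knockout replicates 1, 2 and 3. Knockout replicate 3 stood below all other arrays and the other 2 knockout arrays lay within the wild-type range. The difference was -0.08 (interval from -0.30 to 0.15), and without knockout replicate 3 it was 0.01. Itgav, the alpha chain of several RGD-binding receptors, read 9.74, 9.66 and 9.84 in the wild-type arrays and 9.54, 9.91 and 9.84 in the knockout arrays. The lowest array was knockout replicate 1 and the highest knockout replicate 2, so the knockout arrays enclosed the wild-type arrays. The difference was 0.02, with an interval from -0.23 to 0.27.

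Itgav takes Itgb3 in vessels and platelets and Itgb6 in epithelia. Itgb3 read 7.03, 6.97 and 7.21 in the wild-type arrays and 7.08, 7.05 and 7.10 in the knockout arrays. The knockout arrays lay close together inside the wild-type range, and the difference was 0.0059 with an interval from -0.18 to 0.20. Itgb6 read 4.78, 4.81 and 5.14 in the wild-type arrays and 4.74, 4.94 and 5.01 in the knockout arrays. All 6 of these values were below the background guide of 6.14, which holds for no other member in both groups, so differences of Itgb6 lie within background signal. Itga8, the partner of Itgb1 in a receptor for nephronectin, had levels of 6.91, 7.12 and 7.08 in wild type and 6.97, 7.10 and 6.96 in knockout. The groups overlapped, with the lowest reading in wild-type replicate 1 and the highest in wild-type replicate 2.

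Itga2, a collagen receptor chain of epithelia and platelets, had levels of 7.47, 7.47 and 7.75 in wild type and 7.45, 7.68 and 7.70 in knockout. Replicate 1 of knockout was the lowest and replicate 3 of wild type the highest of the 6. Itga7, the laminin receptor chain of muscle, had levels of 7.01, 6.82 and 6.83 in wild type and 6.78, 6.89 and 6.86 in knockout. Here wild-type replicate 1 was the highest and knockout replicate 1 the lowest. The differences were -0.03 for Itga8, 0.05 for Itga2 and -0.04 for Itga7, and their intervals ran from -0.23 to 0.17, from -0.21 to 0.30 and from -0.23 to 0.14.

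**Figure D2:**
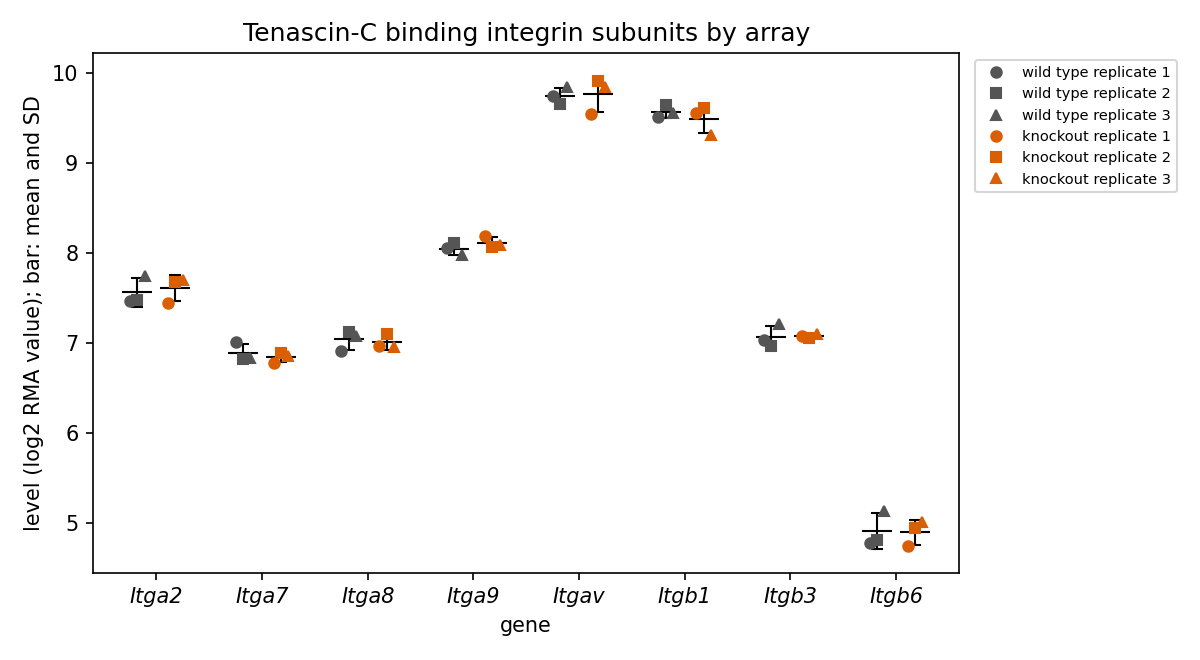
Levels of the 8 tenascin-C binding integrin chains as log2 RMA values, wild-type arrays in grey and knockout arrays in orange, with a marker shape per replicate and the mean and SD over 3 arrays as black bars. The groups overlap for all 8 genes, and the knockout means lie between -0.08 and 0.07 from the wild-type means.

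Of the other 12 integrins, 9 were higher and 3 lower in knockout, or 12 and 0 after median centring. That centring moved the median of all genes from -0.0069 to 0.0236. The split was 7 and 5 without wild-type replicate 1, 8 and 4 without wild-type replicate 2 and 12 and 0 without wild-type replicate 3. The median log2 difference of these 12 integrins was 0.06, with a range from -0.02 to 0.20. Their groups did not overlap for 1 of 12 (Itga3). Itga3 read 8.52, 8.60 and 8.61 in wild-type replicates 1, 2 and 3 and 8.67, 8.72 and 8.73 in knockout replicates 1, 2 and 3. Itga3 pairs with Itgb1 in a laminin receptor of epithelia and of migrating neurons. Each knockout array stood above each wild-type array, though the lowest knockout array exceeded the highest wild-type array by little. The wild-type mean was 8.58 ± 0.05 and the knockout mean 8.71 ± 0.03 (SD, n = 3 each). The difference of 0.13, or a knockout signal 1.09 times the wild-type signal, came with an interval from -0.03 to 0.29 and an adjusted p of 1 over all genes in limma. Across the 6 fits that each left out 1 array it ran from 0.10 to 0.15.

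Itga1, a receptor chain for collagen IV and laminin found on capillaries and vascular smooth muscle, had the largest difference of the 30. Itga1 read 7.72, 7.43 and 7.45 in wild-type replicates 1, 2 and 3 and 7.59, 7.92 and 7.69 in knockout replicates 1, 2 and 3. Knockout replicate 2 was the highest array, but wild-type replicate 1 exceeded the other 2 knockout arrays. The wild-type mean was 7.53 ± 0.16 and the knockout mean 7.73 ± 0.17 (SD, n = 3 each), a difference of 0.20 with an interval from -0.07 to 0.47 (limma, unadjusted p = 0.125). Without knockout replicate 2 the difference was 0.10, and with a term for sex, which compares that array only with wild type, it was 0.39. Endothelial marker genes averaged 8.74, 8.67 and 8.84 in the wild-type arrays and 8.93, 9.03 and 8.84 in the knockout arrays, with 10 of 10 higher in knockout. None of the 10 passed the adjusted test, while 5 had an unadjusted p under 0.05 and 5 had groups that did not overlap, against 1.70% and 5.82% of all genes. The marker lists were chosen with earlier results of these data known, so these counts are description and not independent support. Pericyte markers averaged 8.49 to 8.66 in wild type and 8.57 to 8.74 in knockout, with 7 of 7 higher. Knockout replicate 2 held the highest mean of both lists and the highest Itga1. It also held the highest mean of the radial glial, astrocyte, neuron and lumbar Hox lists. The microglial, meningeal, oligodendrocyte, skeletal muscle and Schwann cell lists were highest in other arrays. The part of endothelial cells and pericytes in the Itga1 values was not tested. In bulk tissue, more cells of a type and more RNA per cell cannot be told apart.

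Among these 12 integrins the smallest p after Itga3 and Itga1 were those of Itga5, the fibronectin receptor chain, and Itgb5, which joins Itgav in a receptor for vitronectin. Itga5 read 7.55, 7.52 and 7.61 in the wild-type arrays and 7.61, 7.74 and 7.61 in the knockout arrays. Only knockout replicate 2 stood clear of the wild-type arrays. Itgb5 read 9.52, 9.68 and 9.78 in the wild-type arrays and 9.72, 9.79 and 9.76 in the knockout arrays. The knockout arrays lay close together near the highest wild-type reading, and wild-type replicate 1 was the lowest. The difference was 0.09 for Itga5 (interval from -0.08 to 0.27) and 0.09 for Itgb5 (interval from -0.10 to 0.29). The Itga5 difference was 0.05 without knockout replicate 2 and 0.12 without wild-type replicate 3, and that of Itgb5 was 0.02 without wild-type replicate 1 and 0.15 without wild-type replicate 3. Vtn, which encodes the Itgb5 ligand vitronectin, had a wild-type mean of 9.98 ± 0.17 and a knockout mean of 10.45 ± 0.14 (SD, n = 3 each) without overlap, and its adjusted p in limma was 1.

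Itga6 and Itgb8 are the integrin chains best known from neural progenitors, Itga6 as a laminin receptor chain of radial glia and Itgb8 as the partner of Itgav that activates latent TGF-beta at the neuroepithelium. Itga6 read 9.01, 8.87 and 8.92 in the wild-type arrays and 9.00, 9.13 and 8.93 in the knockout arrays. Knockout replicate 2 was the highest, and the other 2 knockout arrays lay inside the wild-type range. Itgb8 read 9.70, 9.76 and 9.93 in the wild-type arrays and 9.54, 9.85 and 9.96 in the knockout arrays. The lowest and the highest of the 6 arrays were both knockout arrays, replicates 1 and 3. The differences were 0.09 (interval from -0.10 to 0.28) and -0.02 (interval from -0.29 to 0.26). For Itga6 it was 0.05 without wild-type replicate 2, and leaving out knockout replicate 2 gave 0.03 and knockout replicate 3 gave 0.13. For the 9 radial glial markers, 8 were higher in knockout, and their mean ran from 10.68 to 10.89 in wild type and from 10.80 to 10.89 in knockout.

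The remaining 6 integrin chains are known mainly from other tissues. The collagen receptor chains of cartilage and mesenchyme, Itga10 and Itga11, differed by -0.0011 and 0.15. Itga11 read 6.68 in wild-type replicate 3 against 6.16 and 6.15 in the other wild-type arrays, and its difference was 0.06 without wild-type replicate 2 and 0.32 without wild-type replicate 3. Itga4, a receptor chain for Vcam1 and fibronectin, differed by 0.04, with a range over single arrays left out from 0.0058 (without wild-type replicate 2) to 0.09 (without wild-type replicate 1). Itgb4, which pairs with Itga6 in epithelial hemidesmosomes, differed by 0.04. The leukocyte chains Itgb2 and Itgb7 differed by -0.01 and 0.02. Itgb7 averaged 6.12 and 6.14 in wild type and knockout, at the background guide. Microglia and macrophage markers averaged 7.25 to 7.35 in wild type and 7.26 to 7.37 in knockout, and 7 of 10 were higher. Groups overlapped for all 6 of these chains.

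**Figure D3:**
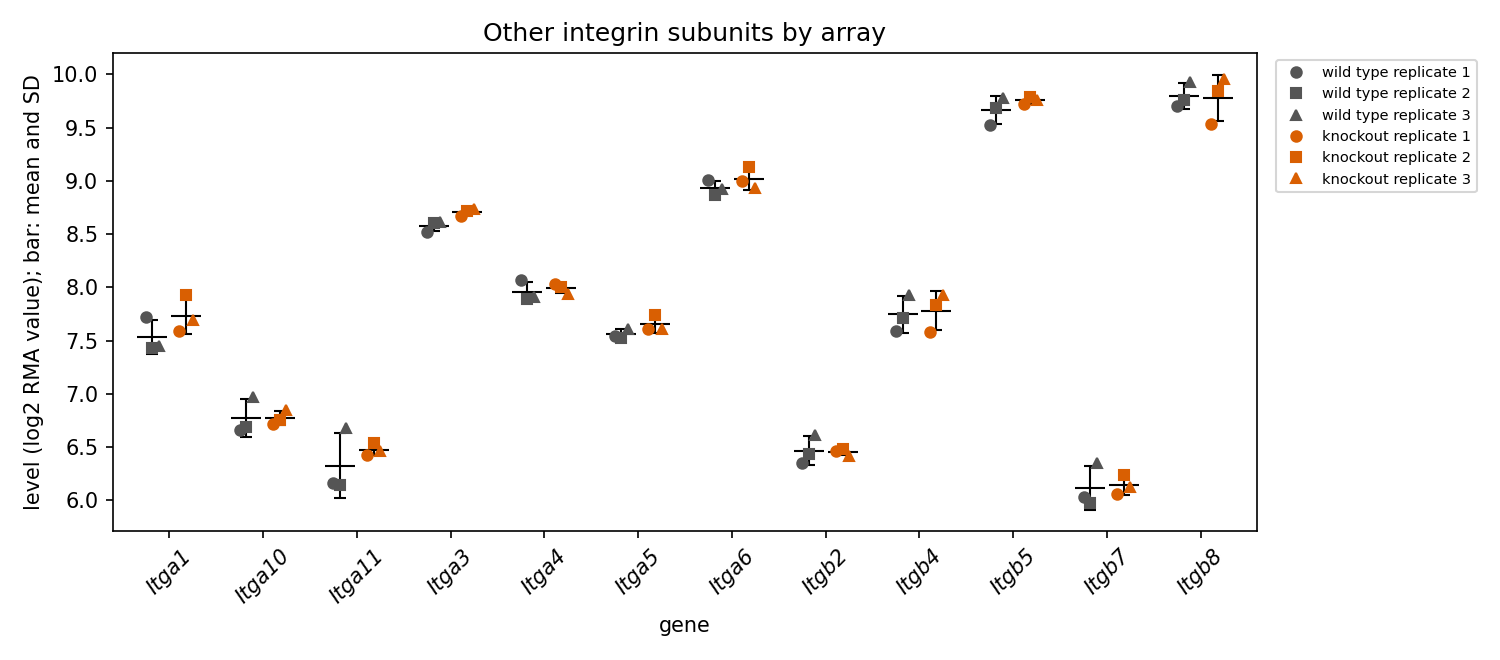
Levels of the 12 other integrin chains as log2 RMA values, with wild-type arrays in grey, knockout arrays in orange, a marker shape per replicate, and the mean and SD over 3 arrays as black bars. Itga3 alone has all knockout points above all wild-type points, and knockout replicate 2 is the highest point of Itga1, Itga5 and Itga6.

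The promoters of Itga3 and Itga1 are shown because these chains had the smallest p and the largest difference of the set. The windows are the 250 bases before the annotated start in RefSeq (GRCm38.p6), on the minus strand, at chr11:95076715-95076964 for Itga3 and chr13:115101965-115102214 for Itga1, and capitals mark a GC box (GGGCGG) or an ETS core site (CCGGAAG), both searched on both strands.
Itga3: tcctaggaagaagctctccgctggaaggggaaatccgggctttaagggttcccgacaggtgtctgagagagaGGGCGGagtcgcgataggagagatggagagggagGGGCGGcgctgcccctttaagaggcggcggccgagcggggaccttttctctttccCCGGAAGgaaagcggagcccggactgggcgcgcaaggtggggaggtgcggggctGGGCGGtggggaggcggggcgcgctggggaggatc
Itga1: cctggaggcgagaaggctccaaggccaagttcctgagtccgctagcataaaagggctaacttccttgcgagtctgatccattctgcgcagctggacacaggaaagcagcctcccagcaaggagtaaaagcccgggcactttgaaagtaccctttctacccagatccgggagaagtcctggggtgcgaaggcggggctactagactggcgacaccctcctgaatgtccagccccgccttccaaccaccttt
The Itga3 window holds both motifs and the Itga1 window neither. A GC box occurred in 8 of 23 windows of the 20 members in the promoter table (34.8%) and in 32.7% of all 32851 windows of the same length, some genes having more than 1 window. The ETS core site occurred in 1 of the 23 member windows (4.35%), that of Itga3, and in 6.91% of all windows. A match is a run of letters, and no binding was measured.

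Laminin chains were split evenly, 5 of 10 being higher and 5 lower in knockout. That count rested on single arrays, with 2 higher and 8 lower without wild-type replicate 2. Leaving out knockout replicate 2 or knockout replicate 3 gave 3 higher and 7 lower, and leaving out knockout replicate 1 gave 7 higher and 3 lower. Their median log2 difference was -0.0094, or 0.0069 after renewed quantile normalization and 0.02 after median centring (0.0086 and 0.0236 for all genes). Their differences ran from -0.13 to 0.14, and the groups overlapped for all 10. By position in the trimer, 1 of 5 alpha chains, 2 of 3 beta chains and 2 of 2 gamma chains were higher. Their spread within groups was wider than that of the integrins, with a median within-group standard deviation of 0.17 against 0.11 for the 20 integrins and 0.12 for all genes.

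The chains shared by most trimers are Lamb1 and Lamc1. Lamc1 read 8.81, 8.82 and 8.87 in wild-type replicates 1, 2 and 3 and 8.69, 9.02 and 9.19 in knockout replicates 1, 2 and 3. The wild-type arrays lay within a narrow band, and the knockout arrays fell on both sides of it, with replicate 1 below and the other 2 above. The wild-type mean was 8.83 ± 0.03 and the knockout mean 8.97 ± 0.25 (SD, n = 3 each), a difference of 0.14 with an interval from -0.15 to 0.42 (limma, unadjusted p = 0.299). Leaving out knockout replicate 1 gave 0.27 and leaving out knockout replicate 3 gave 0.02. Lamb1 read 7.63, 7.12 and 7.45 in the wild-type arrays and 7.29, 7.65 and 7.49 in the knockout arrays. Wild-type replicate 2 was the lowest and knockout replicate 2 the highest, and the difference was 0.07 (interval from -0.26 to 0.40). Lamb2, the beta chain of mature vessels and of synapses at muscle, had levels of 8.39, 8.51 and 8.58 in wild type and 8.38, 8.48 and 8.77 in knockout. Its lowest and highest arrays were both knockout arrays, and its difference was 0.04 (interval from -0.21 to 0.30).

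Among alpha chains, Lama1 and Lama5 are those of the embryonic pial and neuroepithelial basement membranes. Lama1 read 8.88, 8.66 and 8.83 in the wild-type arrays and 8.56, 8.82 and 8.86 in the knockout arrays. Knockout replicate 1 was the lowest and the others overlapped. Lama5 read 6.82, 7.02 and 7.22 in the wild-type arrays and 6.90, 7.07 and 6.98 in the knockout arrays. Wild-type replicates 1 and 3 were the lowest and the highest. The differences were -0.04 (interval from -0.28 to 0.20) and -0.04 (interval from -0.29 to 0.21). Meningeal and fibroblast markers averaged 7.43 to 7.62 in wild type and 7.29 to 7.52 in knockout, with 2 of 10 higher in knockout, and their part in the laminin values was not tested.

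Lama4 is the alpha chain of endothelial basement membranes and Lama2 that of muscle, Schwann cells and perivascular glia. Lama4 read 7.95, 7.49 and 7.48 in the wild-type arrays and 7.65, 7.85 and 7.63 in the knockout arrays. Wild-type replicate 1 was the highest and knockout replicate 2 came next, so the knockout arrays lay inside the wild-type range. The difference was 0.07 with an interval from -0.25 to 0.39. Of the endothelial markers, a list chosen with earlier results known, 10 of 10 were higher in knockout. Without wild-type replicate 1 the Lama4 difference was 0.23, and without wild-type replicate 3 it was -0.0097. Lama2 read 6.33, 6.13 and 6.01 in the wild-type arrays and 6.02, 6.14 and 6.10 in the knockout arrays. These values straddle the background guide, and the difference was -0.07 (interval from -0.29 to 0.15).

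Lama3 and Lamb3 belong to the trimer of skin and other epithelia, and Lamc3 is a gamma chain found at the surfaces of nervous tissue. Lama3 read 6.41, 6.43 and 6.61 in the wild-type arrays and 6.22, 6.45 and 6.40 in the knockout arrays. Knockout replicate 1 was the lowest and wild-type replicate 3 the highest, and knockout replicate 2 lay above 2 wild-type arrays. Lamb3 read 6.19, 6.38 and 6.68 in the wild-type arrays and 6.19, 6.28 and 6.42 in the knockout arrays. Wild-type replicates 1 and 3 were the lowest and the highest. The differences were -0.13 for Lama3 (interval from -0.34 to 0.09), the lowest of the 30, and -0.12 for Lamb3 (interval from -0.42 to 0.18). The Lama3 difference was -0.06 without knockout replicate 1 and -0.18 without knockout replicate 2, and leaving out wild-type replicate 3 gave -0.07. Lamc3 ranged from 7.40 to 7.91 over the 6 arrays and differed by 0.02.

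**Figure D4:**
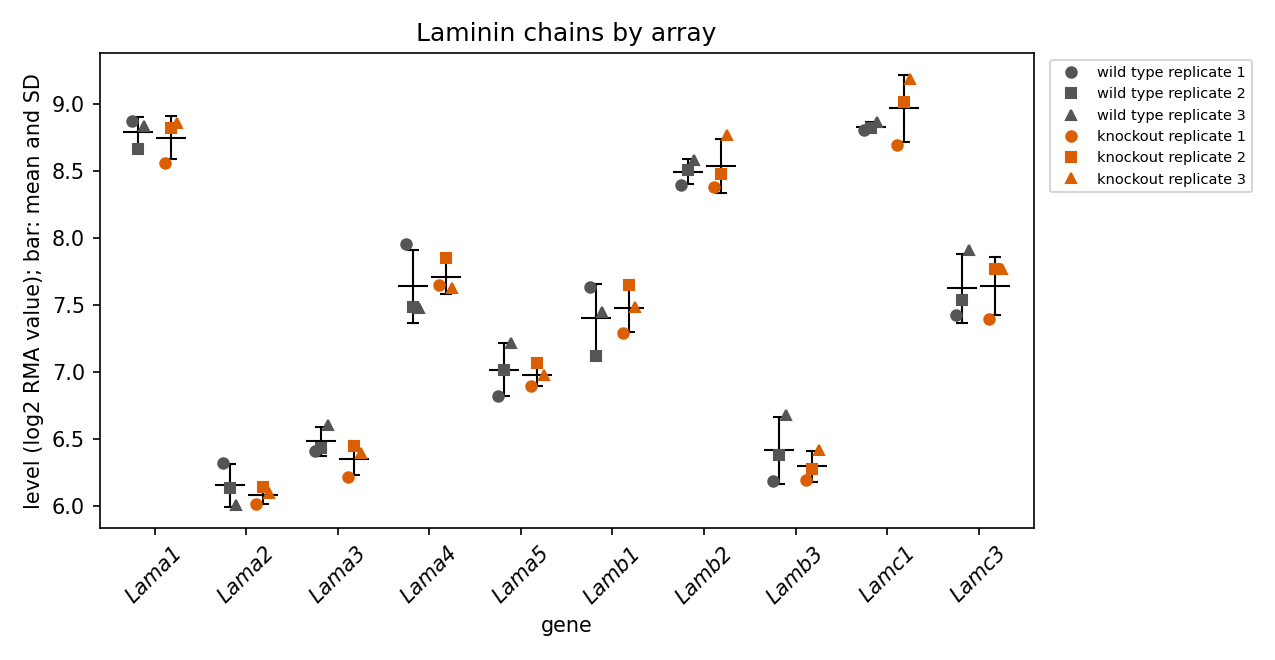
Levels of the 10 laminin chains as log2 RMA values, with wild-type arrays in grey, knockout arrays in orange, a marker shape per replicate, and the mean and SD over 3 arrays as black bars. The groups overlap for all 10 chains, and knockout replicate 1 (orange circle) is the lowest knockout array for 9 of them.

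Within a genotype, many members were high or low in the same arrays. Knockout replicate 1 was the lowest of the knockout arrays for 21 of the 30 chains (70.0%), as it was for 35.7% of all genes, and for 9 of the 10 laminin chains, all but Lama4. The mean of the laminin chains was 7.33 in knockout replicate 1, 7.55 in replicate 2 and 7.56 in replicate 3. Wild-type replicate 3 was the highest wild-type array for 19 of the 30 (63.3%), against 45.4% of all genes. Knockout replicate 2 was the lowest of all 6 arrays for 0 of the 30 chains, against 12.3% of all genes. These counts describe 6 arrays in which genes are not independent, and they have no test.

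The 8 members that were highest in wild-type replicate 1 among the wild-type arrays were Lama1, Lama2, Lama4, Lamb1, Itga1, Itga4, Itga6 and Itga7. By contrast, 14 of the 30 (46.7%) were lowest in wild-type replicate 1 and highest in wild-type replicate 3, as were 30.9% of all genes. The receptor genes of the background guide had the order of these 14 in wild type, with means of 4.45, 4.52 and 4.65. In knockout their means were 4.49, 4.49 and 4.60, the lowest being replicate 2; the mean of the 30 members was lowest in replicate 1 and highest in replicate 2. Skeletal muscle markers averaged 6.61, 6.68 and 6.87 in wild type and 6.62, 6.73 and 6.80 in knockout. The part of background signal and of muscle in the members' values was not tested.

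**Figure D5:**
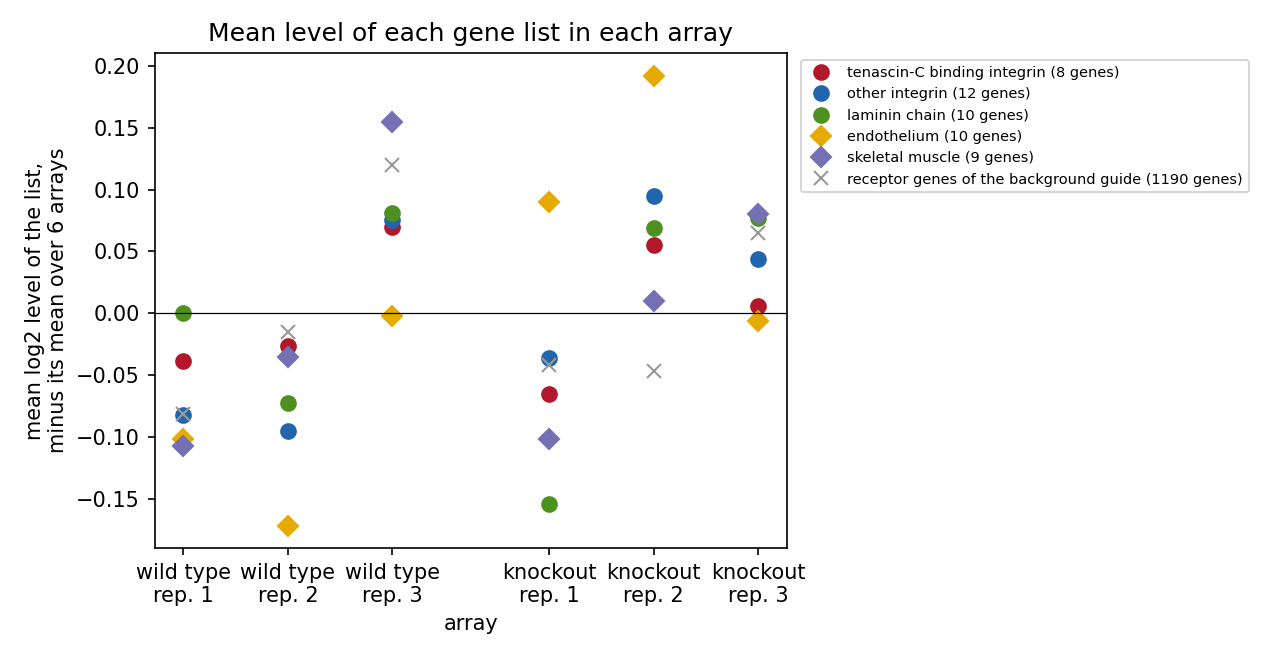
The mean log2 level of each gene list in each array, minus the list's own mean over the 6 arrays, with the number of genes in the legend. The 3 member lists spread as far within each genotype as between them, the laminin chains are lowest in knockout replicate 1, and the endothelial markers are highest in knockout replicate 2.

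Genes that work with these receptors were followed as 4 lists. Of 18 basement membrane partners, such as nidogens, perlecan and dystroglycan, 13 were higher in knockout and 5 lower. Their median was 0.06 and 0 passed the adjusted test. Groups did not overlap for 2 of them (11.1%, against 5.82% of all genes). They were Dag1, the dystroglycan that binds laminin, at 0.08 and Smoc2, a secreted matrix modulator, at 0.17. For Smoc2 the wild-type mean was 7.11 ± 0.06 and the knockout mean 7.28 ± 0.02 (SD, n = 3 each). Of 23 listed integrin ligands 18 were measured, 10 being higher and 8 lower. The median was 0.03, 0 passed the test, and Vtn (0.47) and the tenascin gene Tnr (0.15) had groups that did not overlap. Adaptors and kinases at integrin tails were level, with 14 of 28 higher, 14 lower and a median of -0.0005. Parvb, an actin-binding partner of integrin-linked kinase, was the only adaptor without overlap, at 0.06. Of 7 further genes with integrin names outside the numbered series (Itgal, Itgam, Itgax, Itgad, Itgae, Itga2b and Itgbl1), 2 were higher and 5 lower, the median was -0.10 and no groups separated.

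Directions within the set depended on single arrays. The sign of the difference changed for 20 of the 30 chains when some single array was left out. The chains that kept their sign were Itga1, Itga3, Itga4, Itga5, Itga6, Itga9, Itga11, Itgb5 and Lamc1, all higher in knockout, and Lama3, lower. With a term for sex, knockout replicate 2 becomes the only knockout array compared with wild type, and the sign changed for 10 of the 30.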

How the data were processed

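Values are log2 RMA levels, which per the submitters' processing notes the authors made with RMA (no version given): background correction, quantile normalization between arrays and summary of probes per transcript cluster. The deposited table holds 35557 clusters in 6 arrays. The platform annotation gave 21789 of them a single symbol, and symbols were updated by entrez identifier through a RefSeq table of GRCm38.p6, giving 19938 genes. The cluster with the highest mean stood for each of the 999 genes with several. No dim genes were removed. Genes were compared with limma 3.58.1 in R 4.3.3 (lmFit and eBayes, group as the only term), two-sided, with Benjamini-Hochberg adjustment over all genes. The fit was tested on simulated data. Sequences came from RefSeq. The members and lists were chosen with earlier results of these data known. All members are named. Values per array are given for the tenascin-C binding integrins, members without overlap, the 4 other integrins and 4 laminin chains of smallest p, and 11 chains fixed by name. In the partner lists the genes named are those without overlap, up to 4 by p. Markers of 10 cell types and of lumbar level were averaged per array. Alternatives were each array left out, a replicate block, a sex term, 2 filters on dim genes, other moderation, weights, normalization and cluster rules. Array batches and scan times were not known.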

Additional observations from a re-analysis of the deposited data

How the results depend on the processing

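The count of members past an adjusted p of 0.05 was 0 under all 20 alternatives. Leaving out 1 array at a time, 0 to 4 genes of the whole table passed the adjusted test (4 without knockout replicate 2), 220 (without knockout replicate 2) to 1377 (without wild-type replicate 3) had an unadjusted p under 0.05 and 2192 to 4684 (without the same 2 arrays) had groups that did not overlap, as fewer arrays overlap less. Among the 30 members 0 to 2 had an unadjusted p under 0.05. They were Itga1 and Lama4 without wild-type replicate 1, Itga11 without wild-type replicate 3 and Lamc1 without knockout replicate 1. Groups did not overlap for 2 to 7 members. The 7 of 30 came without wild-type replicate 3, where groups did not overlap for 4684 of the 19938 genes. The differences of the integrins that changed sign ran over these 6 fits for Itga10 from -0.057 to 0.099, Itgb2 from -0.069 to 0.061, Itgb4 from -0.039 to 0.14, Itgb7 from -0.053 to 0.14, Itgb8 from -0.10 to 0.10, Itga2 from -0.0018 to 0.14, Itga7 from -0.079 to 0.016, Itga8 from -0.095 to 0.011, Itgav from -0.054 to 0.13, Itgb1 from -0.14 to 0.014, Itgb3 from -0.043 to 0.074 and Itgb6 from -0.074 to 0.10. Those of the laminin chains ran for Lama1 from -0.11 to 0.051, Lama2 from -0.14 to 0.014, Lama4 from -0.0097 to 0.23, Lama5 from -0.14 to 0.060, Lamb1 from -0.067 to 0.19, Lamb2 from -0.069 to 0.13, Lamb3 from -0.23 to 0.013 and Lamc3 from -0.080 to 0.16. With the sex term, which rests on knockout replicate 2, 1 member (Itga1) and 201 genes had an unadjusted p under 0.05, and the sign turned for Lama1 (0.031), Lama5 (0.046), Lamb2 (-0.019), Itgb2 (0.016), Itgb8 (0.051), Itga7 (0.0047), Itga8 (0.063), Itgb1 (0.045), Itgb3 (-0.016) and Itgb6 (0.030). The estimation of array weights stopped short of its convergence tolerance and put 6.40 on wild-type replicate 2 and 0.271 on wild-type replicate 3. With these weights 8 of the 30 members (Itga1, Itga3, Itga5, Itga6, Itga11, Itgb7, Lama4 and Lamb1) had an unadjusted p under 0.05. So did 4181 of the 19938 genes, against which the member count is to be read. The sign turned for Lama1 (0.088), Itga10 (0.069), Itgb2 (0.026), Itgb8 (0.038), Itga7 (0.030) and Itgb6 (0.090). Without wild-type replicates 1 and 3, where the lone wild-type array is assumed to vary like the knockout arrays, the counts were 2 members (Itga11 and Lamb1) and 844 genes, groups did not overlap for 14 members and 9772 genes, and the sign turned for Lama1 (0.084), Itga10 (0.087), Itgb2 (0.018), Itgb8 (0.022), Itga7 (0.025) and Itgb6 (0.090). Groups did not overlap for 2 members and 1339 genes of the whole table after renewed quantile normalization, where Itga10 (0.025), Itgb2 (0.020) and Itgb6 (0.025) turned sign. They did not overlap for 3 members and 1334 genes after cyclic loess, where Itga10 (0.013), Itgb2 (0.0063) and Itgb6 (0.012) turned sign. After median centring Itga10 (0.029), Itgb2 (0.019), Itgb8 (0.014) and Itgb6 (0.020) turned sign. Without genes under the median level 208 genes had an unadjusted p under 0.05 and 646 had groups that did not overlap, fewer genes and 11 members being tested. Over all transcript clusters 9 passed the adjusted test, none of them a member, 860 had an unadjusted p under 0.05 and 2174 had groups that did not overlap. The replicate block gave 636 genes and 0 members with an unadjusted p under 0.05. Deviations of samples with the same number correlated at 0.345, -0.0746 and 0.449. Wild-type replicates 1 and 3 correlated best with the knockout sample of the same number, but wild-type replicate 2 with knockout replicate 1. As only part of the samples matched by number, the numbers were not taken to pair them. The cause of these shifts was not tested. The median log2 differences ranged over the alternatives from -0.043 to 0.057 for the tenascin-C binding integrins, from 0.030 to 0.12 for the other integrins and from -0.061 to 0.076 for the laminin chains. The spread of each group's mean between arrays (SD) was 0.060, 0.082 and 0.11, and the shift of the first group without wild-type replicates 1 and 3 was about as large as its spread. Signal near background limits Itgb6, Itgb7 and Lama2, and in some arrays also Itga11, Lamb3 and Lama3. Changes smaller than the intervals could not be detected with 3 arrays per group.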
